A study of Mus musculus with 8 samples.

Results

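The Hox, Pax, Gata, Lhx and Fox genes encode transcription factors that pattern the embryo, and 106 of the 21951 protein-coding genes of GENCODE release M21 carry a symbol of these families: 39 Hox, 9 Pax, 6 Gata, 8 Lhx and 44 Fox genes. They were chosen by symbol, and no measured value enters the rule. Cap analysis of gene expression (CAGE-seq), which reads the capped 5' ends of RNA, had been run on nuclear RNA of mouse embryonic stem cells (mESCs) to map where transcription starts with and without PWWP2A and PWWP2B, readers of the histone mark H3K36me3 that bind histone deacetylases. The lines were wild-type E14 (3 libraries) and the Pwwp2a/b double knockout (DKO) clones A1 (2 libraries) and C7 (3 libraries), all grown in serum with LIF on gelatine without further treatment. Each DKO line is a single clone, so what the knockout does and what a clone carries cannot be told apart within a line.

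Hox genes sit in 4 chromosomal clusters and give cells their position along the body axis. Pax proteins carry a paired domain and act in the nervous system, muscle, kidney and B cells. Gata proteins have zinc fingers and specify blood and endoderm, and Lhx proteins join LIM domains to a homeodomain and pattern the head, limb and nervous system. Fox proteins bind DNA through a forkhead domain and are the most varied in use, since some specify single tissues while others serve the cell cycle, metabolism or growth factor signalling in nearly every cell. In mESCs many genes of these families are known to be kept silent by Polycomb complexes until differentiation.

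The replicates of a line had been merged by the authors before the tag clusters were deposited, so each line gave 1 value, no replicate error could be computed and no test was made between lines. A tag cluster is a stretch of neighbouring transcription start sites (TSSs) on 1 strand, and its dominant TSS is the base named as its strongest. The deposited tracks held 32857 clusters in E14, 33005 in A1 and 32870 in C7, each with a score of 0, so they give positions but neither the strength of a start nor the depth behind it. All 46 clusters at the genes described here had identical bounds in the 3 lines, as had 98.6% of the clusters found in all 3 lines at protein-coding genes. The study's methods describe joining nearby clusters into consensus clusters across replicates, and a signal minimum for its own overlaps between groups. Whether either step was applied to the deposited tracks is not given in the sources used here, so the lines may not be independent calls. A gene without a cluster is one for which no start is listed, which is not a measurement of no transcription, and in cultured cells in bulk a listed start does not say in how many cells it is used.

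A gene is called started where at least 1 cluster on its own strand had a dominant TSS from 500 bp upstream of the gene start to the gene end. In each line 16 of the 106 genes were started (15.1%), against 52.2% of all protein-coding genes in E14, 52.2% in A1 and 52.1% in C7. All 16 were Fox genes, which is 36.4% of that family. None of the 39 Hox, 9 Pax, 6 Gata and 8 Lhx genes had a cluster in any line. The same 16 genes were started in E14, A1 and C7, and each had the same number of clusters in the 3 lines. Over all protein-coding genes such differences were rare as well: 0.109% had a cluster in A1 and not in E14, and 0.0547% in C7 and not in E14. Conversely, 22 genes had a cluster in E14 and not in A1, and 29 (0.132%) in E14 and not in C7. The number of clusters differed from E14 at 1.54% of genes in A1 and at 1.33% in C7.

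The started Fox genes fell in 10 of the 19 subfamilies, which are named by letter. Every member was started in 4 of them, namely Foxh1, Foxk1 and Foxk2, Foxm1, and Foxq1. In others the members were divided: Foxn2, Foxn3 and Foxn4 but not Foxn1, the thymus epithelium gene, and Foxo1, Foxo3 and Foxo4 but not Foxo6. Foxp1 and Foxp4 were started and Foxp2 and Foxp3, the factor of regulatory T cells, were not. Of Foxd, Foxi and Foxj, 1 member each was started: Foxd3 of 4, Foxi3 of 3 and Foxj3 of 3. The 28 Fox genes without a cluster included Foxa1, Foxa2 and Foxa3, the pioneer factors of endoderm and liver, Foxc1 and Foxc2 of the mesoderm, Foxj1 of motile cilia and Foxl2 of the ovary. Foxj2 had no cluster either. The genes named are examples, and a split by tissue was not tested.

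**Figure D1:**
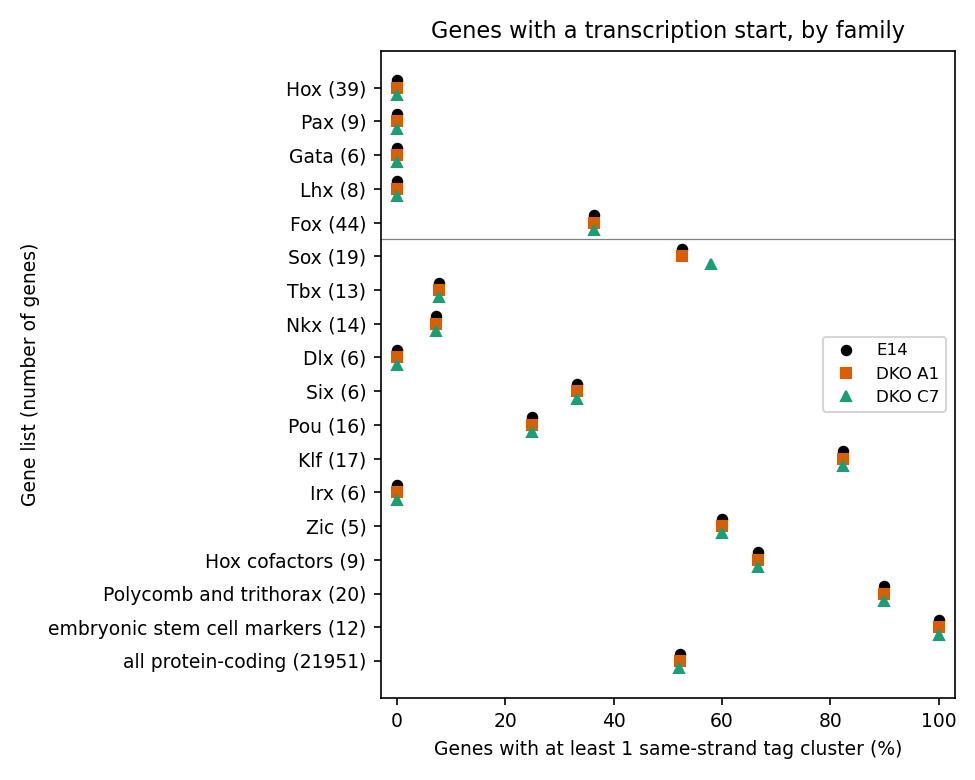
Share of genes with at least 1 same-strand tag cluster (x axis, percent) in each gene list (y axis, number of genes in brackets) for E14 (black circles), DKO A1 (orange squares) and DKO C7 (green triangles), 1 point per merged line. Hox, Pax, Gata and Lhx sit at 0 and Fox at 36.4% in all 3 lines, and all protein-coding genes lie near 52.2%.

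Other families of developmental transcription factors, listed by symbol, had 35 started genes of 102 in E14 and A1 (34.3%) and 36 in C7 (35.3%). Started genes were few among Tbx (1 of 13, Tbx3), Nkx (1 of 14), Dlx (0 of 6) and Irx (0 of 6), and many among Klf (14 of 17), with Pou (4 of 16) and Zic (3 of 5) between. These counts were the same in the 3 lines. In the Sox family 10 of 19 were started in E14 and A1 and 11 in C7, the difference being Sox3, with 1 cluster in C7 and none in E14 or A1. Of the partners of Hox proteins on DNA, 6 of 9 were started in each line (66.7%, beside 52.2% of all protein-coding genes in E14). Clusters lay at Pbx2, Pbx3 and Pknox1 among others, and none at Meis2, Meis3 and Pknox2. Within 500 bp of an annotated transcript start a cluster was found at 5 of the 9, beside 50.4% of all protein-coding genes in E14. Of 20 genes of the Polycomb and trithorax groups, which silence Hox genes or keep them active, 18 were started in each line (90.0%, beside 52.2% in E14). Among them were Ezh2, Eed and Suz12, and Ring1 and Bmi1 had no cluster. A cluster within 500 bp of an annotated transcript start was found at 16 of the 20, and at 50.4% of all protein-coding genes in E14.

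The labelled cell type was checked with marker genes. All 12 embryonic stem cell markers, including Pou5f1, Nanog and Sox2, were started in the 3 lines, and 0 of 6 mesoderm markers. Of 9 primitive endoderm markers 5 were started in each line (Sox7, Sox17, Pdgfra, Dab2 and Lama1) while Gata4, Gata6, Foxa2 and Hnf4a, of which 3 are among the 106 genes, had no cluster. Of the neural markers 3 of 6 were started (Nes, Sox1 and Tubb3), and Pax6 was not. Trophectoderm markers were started at 3 of 6 (Krt8, Krt18 and Tfap2c). These shares, of 55.6% for primitive endoderm and 50.0% for the neural and trophectoderm lists, were near the 52.2% of all protein-coding genes in E14. Fibroblast markers were started at 3 of 6 in E14 and 4 in each clone, where Col3a1 was added. The part of such cells in the starts described here was not tested.

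The sequences around the starts are shown first, since the position of a start is what these data measure. The RefSeq promoter table, on GRCm38.p6, held a sequence for 68 of the 106 genes (64.2%) and a cluster of E14 within that sequence for 8 of the 16 started ones. For 7 of them the bases before and at the first cluster are printed, 5' to 3' on the gene's strand, with the bases of the cluster in capitals and with no more than 30 bases of an annotated exon. Foxp1 is left out because its dominant TSS lies outside such a run.
Foxd3, chr4:99656095-99656162, plus strand: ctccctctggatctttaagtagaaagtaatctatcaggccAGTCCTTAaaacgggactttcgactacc
Foxi3, chr6:70956417-70956479, plus strand: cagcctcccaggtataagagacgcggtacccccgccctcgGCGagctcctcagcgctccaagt
Foxn4, chr5:114273816-114273882, minus strand: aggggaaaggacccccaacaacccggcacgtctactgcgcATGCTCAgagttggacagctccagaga
Foxo3, chr10:42276726-42276798, minus strand: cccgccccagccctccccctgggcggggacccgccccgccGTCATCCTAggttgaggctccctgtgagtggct
Foxk2, chr11:121259959-121260019, plus strand: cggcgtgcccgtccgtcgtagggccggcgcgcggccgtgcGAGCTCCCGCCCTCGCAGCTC
Foxp4, chr17:47924621-47924702, minus strand: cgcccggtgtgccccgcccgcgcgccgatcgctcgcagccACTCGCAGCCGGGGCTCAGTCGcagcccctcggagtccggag
Foxj3, chr4:119539617-119539690, plus strand: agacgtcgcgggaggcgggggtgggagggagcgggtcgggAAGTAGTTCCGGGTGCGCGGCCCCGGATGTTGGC

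The first lines differ from the last ones in the length of the capitals. The first clusters of Foxd3, Foxi3, Foxn4 and Foxo3 covered 3 to 9 bases. Those of Foxk2 and Foxp4 covered 24 and 22 bases and that of Foxj3 72, of which the first 34 are printed. Foxo3 had further clusters in the same promoter window, with dominant TSSs 30 and 60 bp downstream of that of the first. In the full promoter window of 300 bases the 8 genes, Foxp1 included, had 65.3 to 79.3% G or C. The letters GGGCGG, the core of a GC box, stood on either strand in 7 of the 8 windows and not in that of Foxd3, and in 35.7% of 32851 RefSeq promoters of the same length. The letters CCAAT stood in the windows of Foxk2 and Foxp1 and in 37.4% of all promoters, and TATAAA in none of the 8 windows and in 13.6% of all. The 8 windows were taken because they hold a cluster, whereas the RefSeq promoters were not selected for one, so these shares do not compare like sets. Because fewer than 80% of the genes had a sequence, no comparison of started with other members was made.

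The bases at the dominant TSS could be read for 37 of the 46 clusters of E14 (80.4%), from the promoter table and the GENCODE transcripts. A pyrimidine before and a purine on the dominant TSS, the usual initiator step, were found in 22 (59.5%), close to the 61.8% over protein-coding genes. At annotated starts, defined in the next paragraph, it was 20 of 27 (74.1%) beside 75.2%. At the other clusters of E14 it was 2 of 10 (20.0%) beside 11.4%. Of these other clusters 76.9% had a sequence, and 59.5% over protein-coding genes, both below the minimum of 80%. Over all clusters of C7 the step was found in 24 of 38 (63.2%, beside 61.4%). In A1 it was 21 of 36 (58.3%, beside 60.8%), where only 78.3% of the clusters had a sequence, below the minimum of 80% set for such a share. CA was the step at the first clusters of Foxo3, Foxo1 and Foxm1, at the last 2 clusters of Foxh1 and at all but 1 cluster of Foxp4, while Foxd3, Foxk1 and Foxk2 began at CC in E14.

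A cluster was placed at an annotated start where its dominant TSS lay within 500 bp of the start of any transcript of the gene. In each line 33 of the 46 clusters were so placed (71.7%, 95% Wilson interval 57.5 to 82.7, counting error only), as were 71.5% of clusters at protein-coding genes in E14, 71.3% in A1 and 71.4% in C7. They belonged to 15 of the 16 genes, Foxq1 being the exception, and 50.4, 50.4 and 50.3% of all protein-coding genes had such a cluster in E14, A1 and C7. In 6 clusters the dominant TSS was on the annotated base itself, in 13 it was within 10 bp and in 28 within 100 bp. Of the 89 annotated starts of the 16 genes, 49 had a cluster within 500 bp in each line. A single cluster can lie near several annotated starts, so these counts do not tell how many starts were in use. The only cluster of Foxj3 lay near 7 of its 10 starts, while Foxm1 had a cluster near 1 of 7 and Foxk2 near 1 of 3.

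The remaining 13 clusters lay elsewhere in 7 genes: 9 in a 3' UTR, 3 in an intron, 1 in a 5' UTR and none in coding sequence. Among the 7172 such clusters of all protein-coding genes in E14, 39.9% lay in coding sequence, 14.5% in a 3' UTR and 41.8% in an intron. The 3' UTR clusters of the Fox genes came from 4 genes, and those of Foxn3 all lay between 99196133 and 99196238, so they are not independent. The places of the Fox clusters were the same in A1 and C7. If closeness to an annotated start is disregarded, 3 clusters lay in coding sequence, 2 at Foxh1 and 1 at Foxp1.

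**Figure D2:**
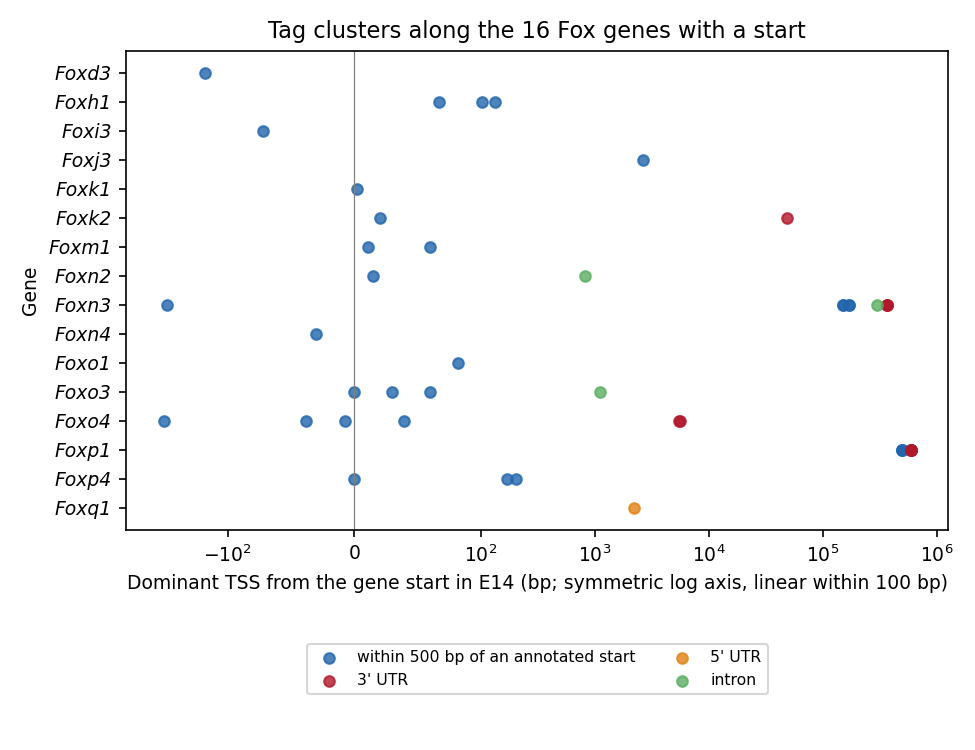
Dominant TSS of each E14 tag cluster relative to the gene start (x axis, bp, linear within 100 bp and logarithmic beyond) for the 16 started Fox genes (y axis), with 1 point per cluster coloured by its place. Most clusters lie within 500 bp of an annotated start (blue), and the 3' UTR clusters (red) belong to Foxk2, Foxn3, Foxo4 and Foxp1.

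Foxn3, Foxp1 and Foxo4 together held 23 of the 46 clusters (50.0%), with 9, 8 and 6 in each line. Of the 16 genes, 7 had a single cluster (43.8%, against 53.2% of started protein-coding genes in E14), and the median was 2 clusters per gene against 1. The started members were long, at a median of 49.9 kb against 4.15 kb for the Fox genes without a start. Over all protein-coding genes the medians were 24.7 kb for started and 10.4 kb for other genes.

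Foxd3, a repressor needed to keep the pluripotent epiblast and later the neural crest, lies on chromosome 4 from 99656299 to 99658622 (mm10, plus strand). Its only cluster, from 99656135 to 99656142, was 160 bp upstream of the annotated start. The dominant TSS was 99656139 in E14, the same in A1 and 1 bp further upstream (99656138) in C7. In E14 it lay 486 bp before the first coding base. A second cluster, on the minus strand from 99656004 to 99656045, pointed away from the gene, with its dominant TSS 295 bp upstream of the gene start in E14 and C7 (99656004) and at 99656026 in A1. No transcript start annotated on the minus strand lay within 500 bp of it.

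Foxh1, the DNA-binding partner of SMADs in Nodal signalling, lies on chromosome 15 from 76668225 to 76669948 (minus strand). It had 3 clusters, with dominant TSSs at 76669881, 76669845 and 76669816 in all 3 lines. The first was in the 5' UTR, 10 bp before the first coding base. The others were inside the coding sequence, 26 and 55 bp after that base, and 43 and 14 bp before the annotated start of a processed transcript, Foxh1-202. A cluster on the plus strand lay 314 bp upstream of the gene start, and no start annotated on the plus strand was within 500 bp of it.

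Foxi3, a gene of the otic and other ectodermal placodes, lies on chromosome 6 from 70956531 to 70961066 (plus strand). It had 1 cluster of 3 bp, 72 bp upstream of the gene start, with its dominant TSS at 70956459 in every line. Foxn4, which acts in retinal progenitors, lies on chromosome 5 from 114254164 to 114273807 (minus strand). Its 1 cluster of 7 bp lay 30 bp upstream of the gene start, with the dominant TSS at 114273837 in E14, 114273836 in A1 and 114273840 in C7. Both genes thus had a narrow start just upstream of the annotated one. Foxq1, known from the satin hair mutation, lies on chromosome 13 from 31556134 to 31560976 (plus strand). It had no cluster at its annotated start, and its single cluster of 2 bp, from 31558324 to 31558325, was in the 5' UTR, 2190 bp downstream of that start and 593 bp before the first coding base.

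Foxk1 and Foxk2, broadly expressed regulators of metabolism and autophagy, each had 1 cluster at the gene start. Foxk1 lies on chromosome 5 from 142401497 to 142462011 (plus strand), and its cluster of 24 bp had the dominant TSS at 142401499 in E14 and at 142401497 in both clones. Foxk2 lies on chromosome 11 from 121259990 to 121309896 (plus strand). Its first cluster, from 121259999 to 121260022, had the dominant TSS at 121260010 in E14 and at 121260022, the last base of the cluster, in both clones. That last base lies just beyond the sequence printed for Foxk2. A second Foxk2 cluster of 2 bp lay in the 3' UTR, with its dominant TSS at 121308359 in all 3 lines.

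Foxm1, which drives genes of mitosis, lies on chromosome 6 from 128362967 to 128376146 (plus strand). It had 2 clusters, with dominant TSSs at 128362978 and 128363027 in each line, both in the 5' UTR, 2727 and 2678 bp before the first coding base. On the minus strand 2 clusters, 99 and 255 bp upstream of the Foxm1 start, lay near annotated starts of Rhno1, 0 and 17 bp from the nearest one, which was a different transcript start for each. Foxm1 and Rhno1 were thus started from neighbouring positions in opposite directions in all 3 lines.

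Foxj3 lies on chromosome 4 from 119537004 to 119629119 (plus strand). Its single cluster, from 119539657 to 119539728, was 2657 bp into the gene, and the dominant TSS, at 119539661 in every line, was on the annotated first base of Foxj3-201. Foxn2 lies on chromosome 17 from 88440711 to 88490533 (plus strand). Its first cluster had the dominant TSS at 88440726 in every line, 9 bp before the start of Foxn2-204. Its second, in an intron 825 bp into the gene, had the dominant TSS at 88441536 in E14 and at 88441527 in both clones.

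Foxo1, Foxo3 and Foxo4 encode the forkhead factors that insulin and growth factor signalling keep out of the nucleus. Foxo1, on chromosome 3 from 52268336 to 52353221 (plus strand), had 1 cluster of 66 bp with the dominant TSS at 52268418 in every line, 82 bp downstream of the annotated start. Foxo3, on chromosome 10 from 42181841 to 42276755 (minus strand), had 4 clusters. The dominant TSS of the first was on the annotated first base of the gene, 42276755, and those of the next clusters were 30 and 60 bp downstream. The fourth, 49 bp wide, lay in an intron 1121 bp into the gene and 201 bp before the first coding base. Foxo4, on chromosome X from 101254528 to 101260873 (plus strand), had 6 clusters. The first 4 lay from 366 bp upstream to 39 bp downstream of the gene start, and the last 2 lay in the 3' UTR, 5466 and 5634 bp downstream.

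Foxn3, a checkpoint suppressor, lies on chromosome 12 from 99190078 to 99563582 (minus strand) and is 373505 bp long. Its first cluster lay 343 bp upstream of the gene start. The next 4, with dominant TSSs in E14 at 99412605, 99412551, 99393075 and 99392979, lay 150977 to 170603 bp into the gene, near the starts of the coding transcripts Foxn3-207 and Foxn3-209. A cluster in an intron and 3 in the 3' UTR followed, the latter 367349 to 367448 bp from the gene start. Of its 14 annotated starts 6 had a cluster within 500 bp.

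Foxp1, which acts in B cells, heart and brain and is known for a stem cell splice form, lies on chromosome 6 from 98925338 to 99522721 (minus strand) and is 597384 bp long. None of its 8 clusters lay upstream of the first coding base of its longest coding transcript, Foxp1-205, which has 2118 coding bases. The first 3, with dominant TSSs at 99028889, 99028260 and 99028196 in every line, began 494 kb into the gene. The second of these was 1 bp before the start of Foxp1-225, with 1731 coding bases. The other 5 lay 592551 to 595805 bp from the gene start, at the end of the gene, 2 of them within 500 bp of the start of a processed transcript and 3 in the 3' UTR. Of its 22 annotated starts 7 had a cluster within 500 bp. A small plus-strand cluster of 3 bp, from 99028376 to 99028378, lay near the second cluster, which spans 99028224 to 99028323, without touching it. The dominant TSS of the plus-strand cluster was 99028378 in E14 and A1 and 99028376 in C7. Foxp4, a factor of lung and foregut, lies on chromosome 17 from 47867133 to 47924645 (minus strand). It had 3 clusters, all within 8 bp of an annotated start, and 5 of its 8 annotated starts had a cluster within 500 bp.

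Over the 16 genes, 29 clusters in 15 genes lay upstream of the first coding base of the longest coding transcript and 17 downstream. Foxp1 was the one gene without an upstream cluster, so its 8 clusters all count as downstream. Its clusters 1, 2 and 3 lay in the 5' UTR of other coding transcripts. No share over all protein-coding genes stands beside these counts.

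The interquantile width, the stretch between the quantiles 0.1 and 0.9 of a cluster's signal, tells whether a start is sharp or spread. At annotated starts the 33 Fox clusters had a median width of 8 bp in E14 (95% interval of the median 5 to 19, range 2 to 62), 8 bp in A1 and 10 bp in C7. Over protein-coding genes the medians were 21, 22 and 22 bp. The Fox medians depended on the distance allowed: with clusters within 100 bp of an annotated start they were 9.5 bp in E14, 13.5 bp in A1 and 12.5 bp in C7. Widths of at most 10 bp made up 60.6% of the Fox clusters in E14 and 51.5% in each clone, against 31.8, 31.3 and 31.4% over protein-coding genes. Clusters elsewhere in the Fox genes had a median of 2 bp in each line, with 7 of 13 at exactly 2 bp, and a median of 3 bp over protein-coding genes. Clusters of 1 gene share its promoter and are not independent.

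Taking for each gene the cluster nearest to an annotated start, the widest in E14 were Foxj3 at 62 bp, Foxn2 at 40 bp, Foxo1 at 38 bp, and Foxm1 and Foxp1 at 35 bp each. The narrowest were Foxq1 at 2 bp, Foxi3 and Foxo4 at 3 bp, Foxh1 at 4 bp and Foxn3 at 5 bp. Those of Foxj3, Foxo1, Foxh1, Foxi3 and Foxq1 had the same width in the 3 lines. Foxm1 was 38 bp in A1 and 32 bp in C7, Foxn2 was 39 bp in A1 and 40 bp in C7, Foxo4 was 5 bp in A1 and 3 bp in C7, and Foxn3 was 5 bp in A1 and 11 bp in C7. Among the 5 narrowest of these nearest clusters, none was over 11 bp in a clone. This holds for the 1 cluster taken per gene: Foxn3 and Foxo4 also had wider clusters at annotated starts, of up to 28 and 31 bp in E14.

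**Figure D3:**
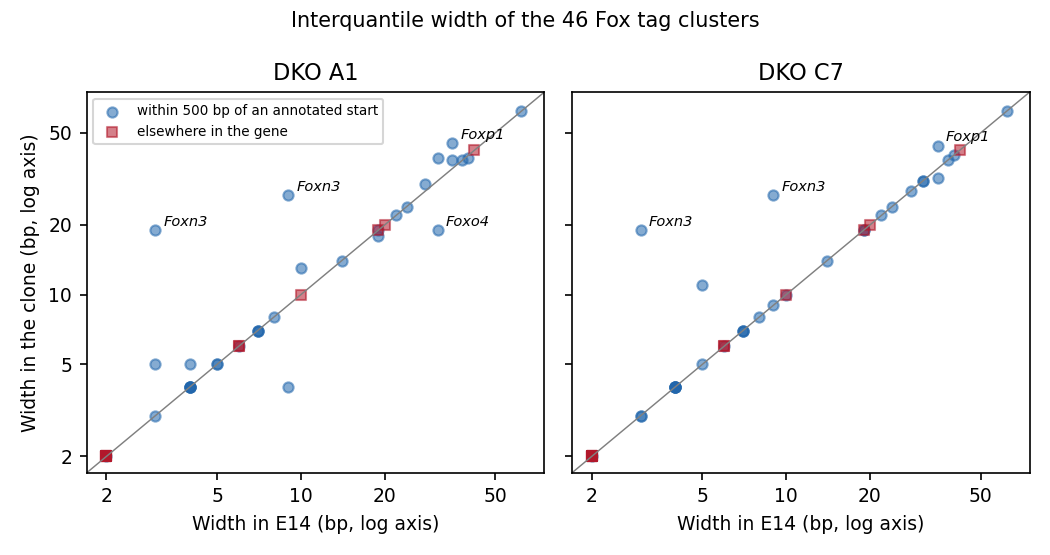
Interquantile width of each of the 46 Fox tag clusters in E14 (x axis, bp, log scale) against DKO A1 (left) and DKO C7 (right; y axis, bp, log scale), with clusters within 500 bp of an annotated start as blue circles, the others as red squares, and the line of equal width in grey. Most points lie on the line, and clusters of Foxn3 and Foxp1 lie above it in both clones.

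The width was the same in all 3 lines at 32 of 46 clusters (69.6%, against 56.6% over protein-coding genes). It was larger in both clones than in E14 at 3 clusters (6.52% against 13.5%). The first Foxn3 cluster was 3 bp in E14 and 19 bp in each clone, the fifth was 9 bp in E14 and 27 bp in each clone, and the second Foxp1 cluster was 35 bp in E14, 45 bp in A1 and 44 bp in C7. No cluster was narrower in both clones (4.35% over protein-coding genes). Taken singly, A1 had 9 wider and 4 narrower clusters than E14 (19.6 and 8.7%, against 22.1 and 11.3% over protein-coding genes). C7 had 4 wider and 1 narrower (8.7 and 2.17%, against 20.2 and 11.2%). In A1 the first Foxo3 cluster was 4 bp, against 9 bp in E14 and C7, and the second Foxo4 cluster was 19 bp, against 31 bp in E14 and C7. Without replicates, whether these differences exceed the spread between libraries could not be tested.

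The dominant TSS was the same base as in E14 at 35 of 46 clusters in A1 (76.1%, interval 62.1 to 86.1, against 76.9% over protein-coding genes) and at 33 in C7 (71.7%, 57.5 to 82.7, against 79.7%). At annotated starts it was 25 of 33 in A1 (75.8%, 59.0 to 87.2, against 78.5%) and 23 of 33 in C7 (69.7%, 52.7 to 82.6, against 80.9%). In all 3 lines it was the same at 30 clusters (65.2% against 67.4%). Among the other 16, 6 had the same new position in both clones (of 46, against 8.04% of the clusters of protein-coding genes). The Foxk2 start, 12 bp downstream of its place in E14, was the only one of these that differed by 10 bp or more in both clones. The other 5, with positive values downstream, were Foxn2 cluster 2 (-9 bp), Foxn3 cluster 5 (-5 bp), Foxk1 (-2 bp), Foxo4 cluster 6 and Foxp1 cluster 5 (1 bp each).

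Differences of 10 bp or more in a single clone were found at Foxo4 cluster 3 (18 bp) and Foxn3 cluster 3 (13 bp) in C7, where A1 had the base of E14, and at Foxp1 cluster 7 (-18 bp) in A1, where C7 had the base of E14. The remaining shifts were of 1 to 6 bp. With Foxk2 included, differences of 10 bp or more were found at 2 of 46 clusters in A1 (4.35%, against 8.35% over protein-coding genes). In C7 they were found at 3 of 46 (6.52%, against 7.48%). No shift could leave the bounds of its cluster, since these were identical in the 3 lines.

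**Figure D4:**
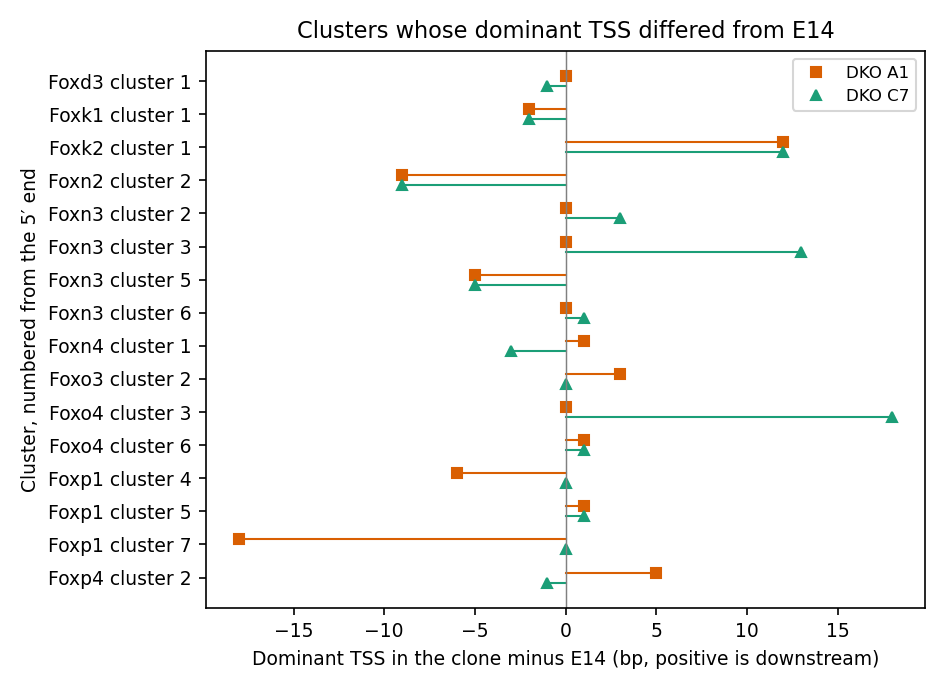
Position of the dominant TSS in DKO A1 (orange squares) and DKO C7 (green triangles) minus that in E14 (x axis, bp, positive downstream) for the 16 Fox tag clusters where it differed in either clone (y axis, numbered along each gene). Foxk2 lies at 12 bp in both clones, while the largest values, at Foxo4 and Foxp1, occur in 1 clone each.

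The 39 Hox genes, with 8 anterior, 15 central and 16 posterior ones, had no same-strand cluster, and 2 of their 4 regions were free of clusters on either strand. The Hoxc region (chromosome 15, 102921103 to 103036852) and the Hoxd region (chromosome 2, 74668310 to 74765142) held none in any line.

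The Hoxb region (chromosome 11, 96194316 to 96368256) held 4 clusters in E14 and C7 and 3 in A1, all on the plus strand. They lay at the pseudogene Gm11539 (96248637 to 96248638, absent from A1), at the lincRNA Gm53 (96251203 to 96251220), and at 96266386 to 96266406 and 96266578 to 96266579, with no start annotated on that strand within 500 bp. The last pair lay upstream of Hoxb9, whose gene start at 96271457 was 4.88 kb from the nearer cluster.

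For the 90 genes without a start, the distance from the gene start to the nearest dominant TSS on either strand in E14 had a median of 60.9 kb, against 73.9 kb for the 10494 protein-coding genes without a start. By family the medians were 62.8 kb for Hox, 114.0 kb for Pax, 61.2 kb for Gata, 41.6 kb for Lhx and 40.1 kb for Fox genes. Within 10 kb there was a cluster for 7 of the 90 (7.78%, against 11.4%). Among these were Foxa3 at 0.885 kb and Hoxb9 at 4.88 kb, while the cluster nearest to Foxp2 was 1030 kb away. Neighbouring Hox genes share their nearest cluster, so the 39 distances are not independent.

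**Figure D5:**
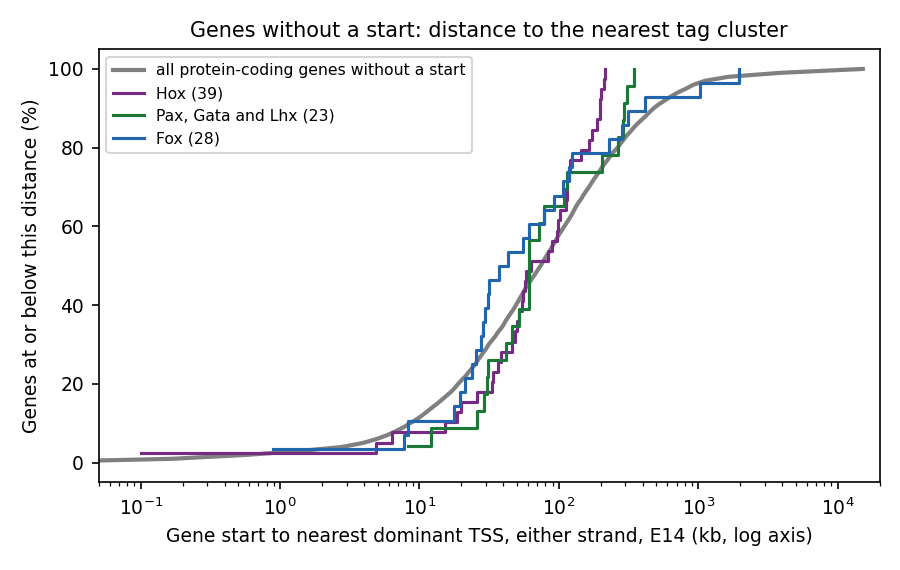
Cumulative share of genes without a start (y axis, percent) against the distance from the gene start to the nearest dominant TSS on either strand in E14 (x axis, kb, log scale) for Hox (purple), Pax, Gata and Lhx together (dark green), Fox (blue) and all protein-coding genes without a start (grey). The curves rise over a similar range, with medians of 62.8 kb for Hox, 40.1 kb for Fox and 73.9 kb for all.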

How the data were processed

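The authors mapped CAGE-seq reads of nuclear RNA to mm10 with STAR 2.4.2a (SAMtools 1.3 and bedtools 2.17.0 are also named in their processing notes), merged the replicates of each line, applied a power-law normalization and used CAGEr to group 5' ends into tag clusters. From the deposited track file, the bounds, dominant TSS and interquantile block of each cluster were taken as positions in bp, with every score at 0. No read depth was used.

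Genes, transcripts and exon types came from GENCODE release M21, where the authors used a later release. Python 3.11.15 with NumPy 2.4.6, SciPy 1.17.1 and Matplotlib 3.10.9 gave the counts, medians, Wilson intervals and plots. Clusters in different lines were matched by an overlap of at least 1 bp. Of simulated clusters placed near annotated starts, 200 of 200 were found at their gene, which checks the code and not detection in these data. Members and lists were chosen with earlier results of these data known.

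Genes were named by a rule: the 10 Fox genes with most clusters, the 5 widest and 5 narrowest starts, members that differ in number or presence between lines, and dominant TSSs 10 bp or more from E14 in both clones. The remaining started genes, and single genes of other lists, were named after their values were seen. Alternatives were the upstream window, strand, minimum width, overlap rule and annotated starts only. Results for some genes are not reported here.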

Additional observations from a re-analysis of the deposited data

How the results depend on the processing

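Of the alternative values, 83 stayed within the 95% interval of the reported value (for counts, within 1.5 times of it) and 5 moved. Most results were counted once per line, often with the same value in each, so these are not 83 separate checks. With clusters of at least 3 bp interquantile width, the share at annotated starts was 84.2% in E14, A1 and C7, against 71.7%. Counting a dominant TSS within 10 bp as the same gave 97.0% in A1 and 90.9% in C7 at annotated starts, against 75.8 and 69.7%. The number of started genes was 15 with an upstream window of 100 bp, which loses Foxd3, 15 with a width of at least 3 bp or with annotated starts only, which lose Foxq1, and 16 with a window of 1000 bp, the same in each line. No paired analysis was possible because the replicates of each line are merged in the deposited clusters, and leaving out a replicate could not be run for the same reason. The missing depth and a minimum signal not known for the deposited clusters limit every statement on genes without a cluster.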
